A study of Mus musculus with 12 samples.

Results

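The enzymes that cut and finish peptide hormones were followed in pancreatic islets of NOD mice, a strain that develops autoimmune diabetes, and of NOD.B10 mice, which share the NOD background, carry another MHC haplotype and do not develop diabetes. All mice were females of 12 weeks, with 6 NOD and 6 NOD.B10 mice. Islet profiles were cut by laser from stained frozen sections, profiles of many islets were pooled for each mouse, and their RNA was amplified, labelled with Cy5 and hybridised on 1 two-colour array per mouse. A universal mouse reference RNA labelled with Cy3 shared every array, and the dyes were not swapped. The members were all non-control probes of Pcsk1, Pcsk2, Cpe and Pam, found through the RefSeq accession that the array gives for each probe. They came to 8 probes, 2 for each of the 4 genes, of 41174 non-control probes that stand for 17016 named genes among others. For each gene the probe with the higher mean Cy5 signal is called its lead probe and the other its second probe.

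Peptide hormones are made as longer precursors that are cut inside secretory granules. The proprotein convertases PC1/3, encoded by Pcsk1, and PC2, encoded by Pcsk2, cut precursors after basic residues, carboxypeptidase E, encoded by Cpe, trims those residues off the new ends, and peptidylglycine alpha-amidating monooxygenase, encoded by Pam, turns a terminal glycine into an amide. In beta cells PC1/3, PC2 and carboxypeptidase E turn proinsulin into insulin, and in alpha cells PC2 frees glucagon from proglucagon. Both cell types lie in the captured profiles, so a level measured here is a sum over them.

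The islet channel itself differed between the strains. Cy5 was well above background, by the scanner's own test against local background, on 13.6 ± 2.45% of all spots, controls included, in NOD and on 6.06 ± 1.31% in NOD.B10 (mean ± SD of 6 arrays each, exact 2-sided permutation p = 0.00216, the smallest that 6 against 6 arrays allow). The reference channel was at 48.9 ± 1.87% in NOD arrays and 48.5 ± 2.25% in NOD.B10 arrays (exact permutation p = 0.792). Of 20 leukocyte markers listed, 19 had a probe and 13 were tested, and all 13 were called higher in NOD, against 20.0% of all probes tested. Of these 13, 9 were well above background on 0 NOD.B10 arrays. They were tested only through their NOD signal, which favours such a call. Net Cy5 of the 19 with a probe summed to 1640 to 12770 in NOD and to 58.1 to 151 in NOD.B10. The T cell gene Cd3e and the B cell gene Cd79a were well above background on 0 arrays. Their partners Cd3d and Cd79b, named after their values were seen, were so on 6 NOD and 0 NOD.B10 arrays and were called higher (limma adjusted p = 0.00236 and 0.00272). The 18 acinar markers with a probe summed to 400.5 to 4906 in NOD and 317 to 13110 in NOD.B10, and the 10 beta cell markers to 4284 to 33150 in NOD and 12160 to 30860 in NOD.B10. These sums are unscaled. In the normalised ratios used for the calls, 7 of 11 acinar and 3 of 6 beta cell markers tested were called lower in NOD, and 0 of either higher. Among all probes tested, 16.4% were called lower. The 5 alpha cell markers summed to 22390 to 36000 in NOD and 9383 to 23770 in NOD.B10, and the 5 mesenchymal markers to 475.1 to 2084 in NOD and 65.9 to 239.3 in NOD.B10. Ins2, Gcg and Sst, which define beta, alpha and delta cells, were well above background in Cy5 on every array. The arrays lay on 4 slides. Slide 1 held NOD replicates 1 and 2, slide 4, scanned on another day, held NOD.B10 replicates 2 and 3, and slides 2 and 3 held 2 mice of each strain.

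The 4 genes were read with very unequal success. Both Pcsk2 probes and the lead Cpe probe were well above background in Cy5 on all 12 arrays. The lead Pcsk1 probe reached this on 4 of 6 NOD and 5 of 6 NOD.B10 arrays. The second Cpe probe reached it on 1 array, NOD replicate 4, and the second Pcsk1 probe and both Pam probes on 0 arrays. Probes below this mark on more than 8 of the 12 arrays were left untested, so 4 of the 8 member probes were tested and Pam was not.

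**Figure D1:**
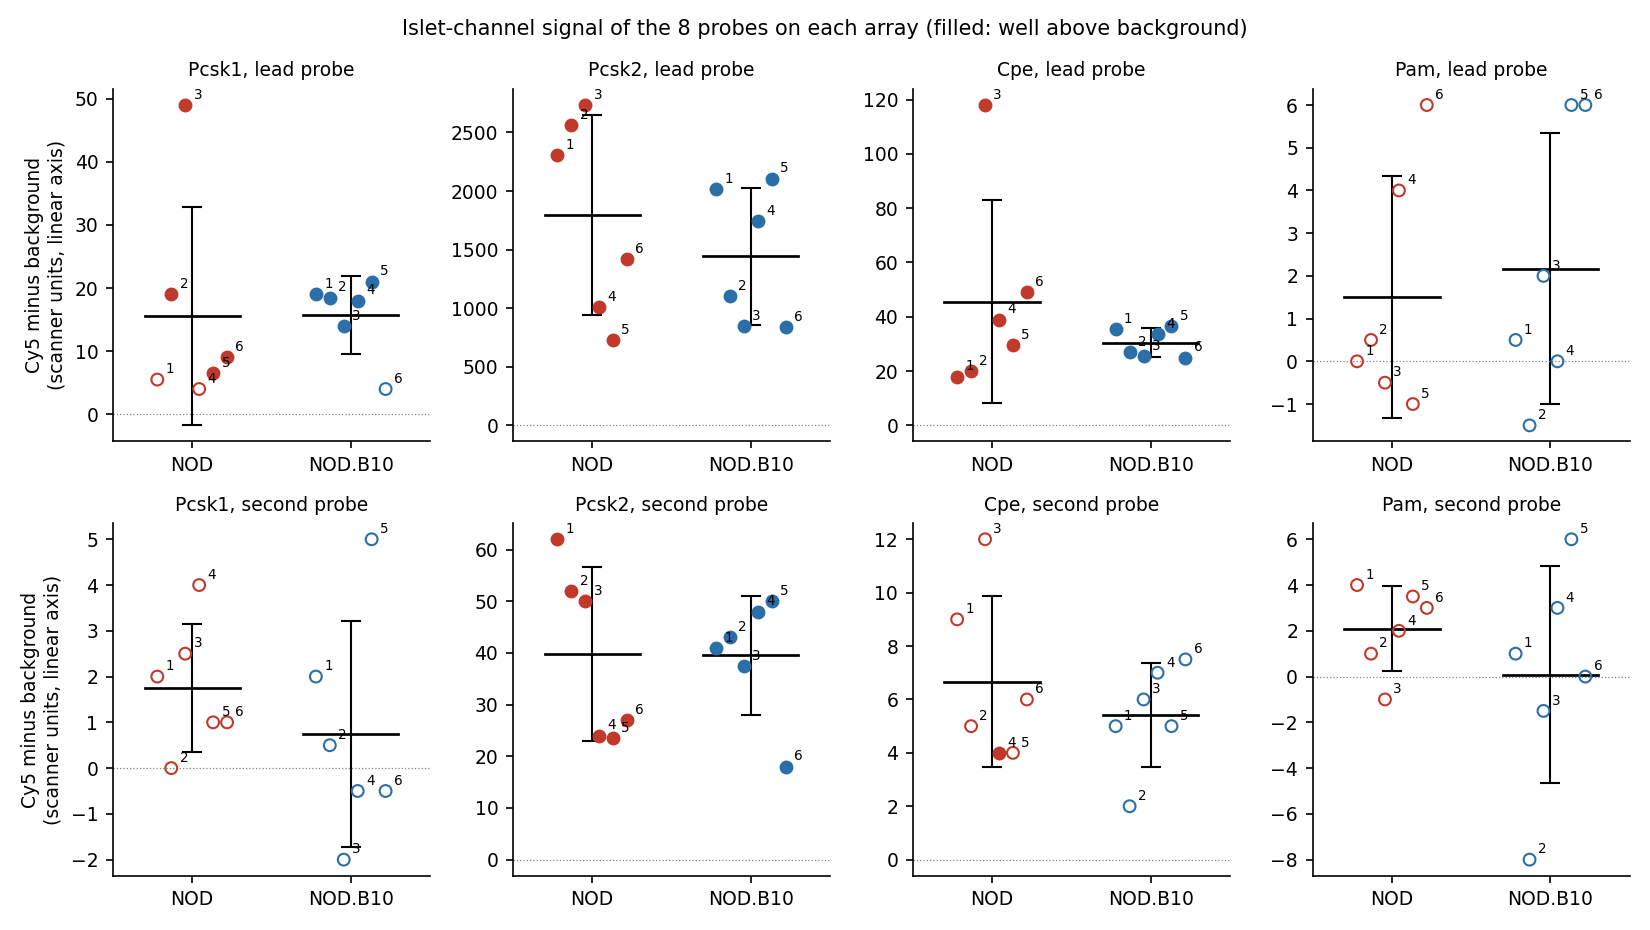
Cy5 signal minus local background (scanner units, linear axes that differ between panels) for the lead and second probe of each gene, with 1 point per mouse, its replicate number beside it, and bars for the mean and SD of 6 mice. Filled points are well above background, and the NOD and NOD.B10 points overlap in every panel.

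The Pcsk2 lead probe, for the convertase PC2, was read on every array. Its net Cy5, the median signal minus the median local background, was 727 at the lowest, 1864 at the median and 2734 at the highest in NOD, against 835.5, 1422 and 2106 in NOD.B10. The strains overlapped fully on this scale, before any scaling between arrays (exact permutation p = 0.405). As a share of each array's summed net Cy5, the probe held 0.0920 to 0.281% in NOD and 0.17 to 0.438% in NOD.B10, again with overlap (exact permutation p = 0.0844). NOD replicates 1, 2 and 3 were high and 4 and 5 low in net Cy5, and NOD.B10 replicates 3 and 6 were the low ones of their strain.

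After normexp background correction and loess normalisation within each array, Pcsk2 was 2.66-fold lower in NOD. Its log2 ratio of islet Cy5 to reference Cy3 ran from 5.90 through a median of 6.46 to 7.89 in NOD, against 7.04, 8.04 and 8.87 in NOD.B10. Of the NOD arrays only replicate 3 lay inside the NOD.B10 range. The difference was -1.41 ± 0.40 on the log2 scale (SE, n = 6 per strain, 95% confidence interval -2.27 to -0.55, limma with Benjamini-Hochberg adjustment over 5347 probes, adjusted p = 0.0147). Among all probes tested, 16.4% were called lower in NOD and 20.0% higher, 36.4% in all, so 1 called probe among the 4 tested members was no more than the background. In such bulk RNA, fewer cells of a type and less RNA per cell cannot be told apart. Leukocyte markers were higher in NOD as given above. Mesenchymal markers were higher in summed net Cy5, but in this fit 1 of the 5 was called higher, 1 lower and 3 were not called. The part of these cells in the Pcsk2 difference was not tested.

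The level of that ratio depended heavily on the loess step. Before it, the Pcsk2 lead probe stood at log2 ratios of 0.30 to 1.90 in NOD and 0.08 to 1.16 in NOD.B10. Loess, which removes the trend of the ratio with brightness on each array, added 4.61 to 6.81 in NOD and 6.94 to 8.02 in NOD.B10. The whole strain difference of Pcsk2 in the normalised ratios therefore lay in the amount added, and the mean ratio before that step was not lower in NOD.

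The second Pcsk2 probe did not follow the lead probe in the same fit. Its net Cy5 was 23.5, 38.5 and 62 in NOD (lowest, median and highest) and 18, 42 and 50 in NOD.B10. Its log2 ratio was 0.79, 1.20 and 1.82 in NOD and 0.72, 1.52 and 1.72 in NOD.B10, and the ranges overlapped. The difference was -0.19 ± 0.22 (SE, limma adjusted p = 0.538, 95% confidence interval -0.66 to 0.29). Its NOD.B10 mean was only 1.43, and the undetected lead Pam probe lay at -0.13 to 0.20 on this scale. This fit therefore left little room for a fall as large as that of the lead probe. In background-subtracted ratios centred on probes bright on all arrays, the second probe was at -1.94 and the lead probe at -1.50. As a share of the array's net Cy5 the second probe was lower in NOD, at 0.00219 to 0.00514% against 0.00416 to 0.0121% in NOD.B10 (exact permutation p = 0.00649). The array totals behind these shares averaged 1110000 for NOD mice against 552000 for NOD.B10 mice (exact permutation p = 0.00649). The probe's own signal averaged 39.75 for NOD mice against 39.58 for NOD.B10 mice (exact permutation p = 0.989). The lower share thus went with a larger NOD total, and the probe's own signal did not differ detectably. Since the NOD arrays were brighter in general, unscaled signal cannot show whether expression of the gene fell.

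Pcsk1, whose product PC1/3 makes the first cut in proinsulin, was close to the limit of detection. The net Cy5 of its lead probe was 4, 7.75 and 49 in NOD (lowest, median and highest) and 4, 18.3 and 21 in NOD.B10. The highest value was that of NOD replicate 3, and 4 of the other NOD mice lay under 10. Log2 ratios were 0.09, 0.22 and 1.67 in NOD and 0.10, 0.75 and 0.83 in NOD.B10, a difference of -0.13 ± 0.25 (SE, limma adjusted p = 0.728, 95% confidence interval -0.66 to 0.41). The ranges overlapped, and no strain difference was detectable at this signal. The second probe gave net Cy5 of 0 to 4 in NOD and -2 to 5 in NOD.B10.

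Cpe, the carboxypeptidase that acts after both convertases, was detected on every array but with low signal. Net Cy5 of the lead probe was 18, 34.3 and 118 in NOD (lowest, median and highest) and 25, 30.3 and 36.5 in NOD.B10, with NOD replicate 3 far above the rest and NOD replicates 1 and 2 below all others. Its log2 ratios were -0.03, 0.71 and 2.20 in NOD and 0.86, 1.03 and 1.11 in NOD.B10. Of the NOD mice, 5 lay below every NOD.B10 mouse and replicate 3 above every one. Over all 12 mice the difference was -0.27 ± 0.29 (SE, limma adjusted p = 0.5, 95% confidence interval -0.91 to 0.36). Without NOD replicate 3 it was -0.56 (limma adjusted p = 0.0142). The spread between mice was 0.79 in NOD and 0.10 in NOD.B10 (SD of the log2 ratio, n = 6 each). NOD replicate 3 also had the highest unscaled beta cell marker sum of all arrays, 33150. As a share of the array's summed net Cy5 this was 3.41%, against 0.521 to 1.74% in the other NOD mice. NOD.B10 replicates 1, 4, 5 and 6 had larger shares, 3.45 to 3.85%. The part of beta cells in the Cpe value of NOD replicate 3 was not tested. The second Cpe probe had net Cy5 of 4 to 12 in NOD and 2 to 7.5 in NOD.B10. The reference signal at the lead Cpe probe was uneven. Its net Cy3 was 278 on NOD replicate 2, 251.5 and 290 on NOD.B10 replicates 2 and 3, and 504 to 633.5 elsewhere. At the lead Pcsk2 probe these arrays lay inside the range of the others, 550 to 1268. The part of this in the Cpe ratios was not tested.

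Pam, the amidating enzyme needed for amylin and other amidated islet peptides, was not well above background in either strain. Net Cy5 was -1, 0.25 and 6 in NOD (lowest, median and highest) and -1.5, 1.25 and 6 in NOD.B10 for the lead probe, and -1 to 4 in NOD and -8 to 6 in NOD.B10 for the second. These values straddle 0 in both strains, so no fold and no test is given. The lead probe was not unresponsive, since the reference RNA was well above background at it on 9 of the 12 arrays, and at the second probe on 2. The arrays where the lead probe fell short were NOD replicate 2 and NOD.B10 replicates 2 and 3.

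**Figure D2:**
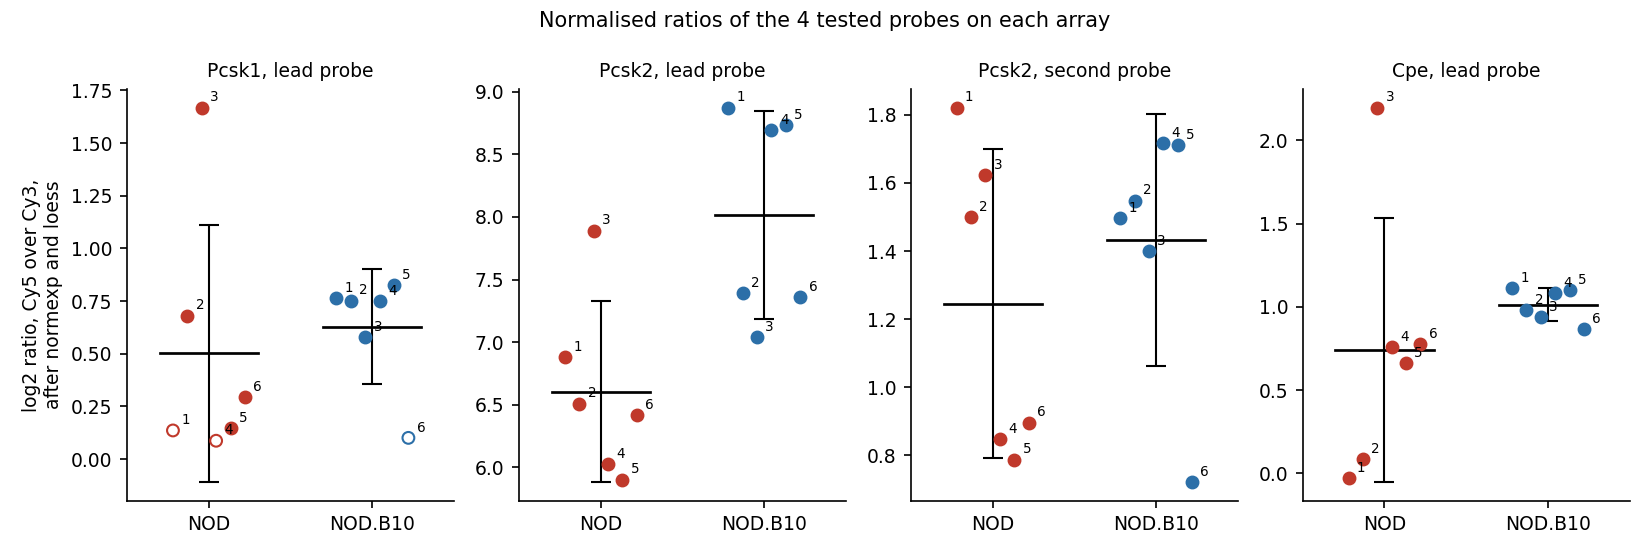
Log2 ratio of Cy5 to Cy3 after normexp and loess for the 4 tested probes, with 1 point per mouse (replicate number beside it, open where Cy5 was not well above background) and bars for the mean and SD of 6 mice. For the Pcsk2 lead probe, 5 of 6 NOD mice lie below every NOD.B10 mouse, and in the Cpe panel NOD replicate 3 stands above all others at 2.20.

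How far NOD and NOD.B10 islets differed in these genes depended on how the arrays were put on 1 scale. Pcsk2 was lower in NOD in the ratios the scanner software had processed (log2 -1.64, limma adjusted p = 0.000491), in quantile-normalised Cy5 alone (-1.21, adjusted p = 0.0438) and in background-subtracted ratios centred on probes bright on all arrays (-1.50, adjusted p = 0.000103). With each array's log2 ratios only centred on their median it was not lower, at 0.49 (adjusted p = 0.0783). Under this centring the median of all probes was itself shifted by 0.425, against 0.0164 after loess, and Pcsk2 differed from that shift by 0.07. The shift was 0.552 in the scanner's ratios, 0.0936 in Cy5 alone and -0.364 in the bright-probe ratios, which leaves Pcsk2 at -2.19, -1.31 and -1.13 relative to all probes there.

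The second Pcsk2 probe and Cpe joined the lead Pcsk2 probe in 3 of these scalings. The second Pcsk2 probe was lower by -1.70 in the scanner's ratios, -0.79 in Cy5 alone and -1.94 in the bright-probe ratios (limma adjusted p = 0.0062, 0.000123 and 9.76e-05). Cpe was lower there by -1.59, -0.52 and -1.95 (adjusted p = 0.0154, 0.0323 and 0.00345). Under median centring the second Pcsk2 probe was at 0.04 and Cpe at -0.01. The shares of all probes called lower were 7.67% in the scanner's ratios, 6.81% in Cy5 alone, 35.0% in the bright-probe ratios and 0.0187% under median centring. Pcsk1 was at -1.29 (adjusted p = 0.197), -0.37 (adjusted p = 0.0544) and -0.01 (adjusted p = 0.948) in the scanner's ratios, in Cy5 alone and under median centring, and passed the test in none.

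**Figure D3:**
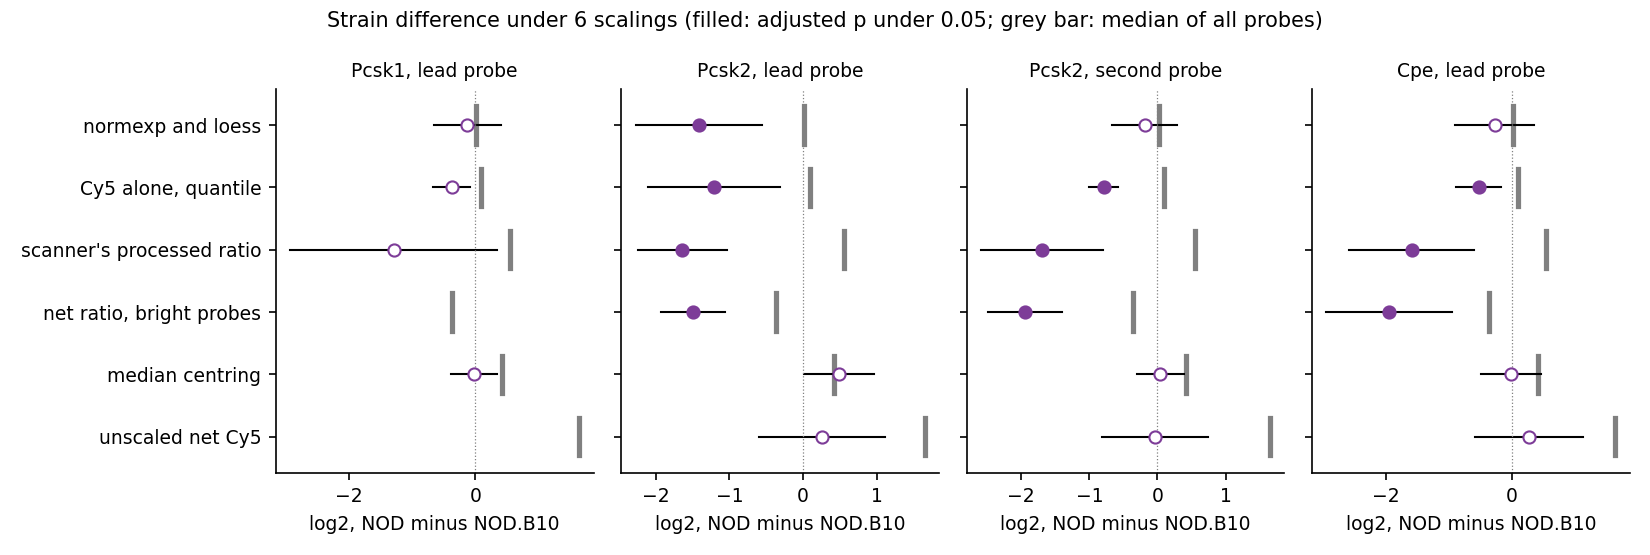
Difference in log2 signal or ratio, NOD minus NOD.B10, with its 95% confidence interval for each tested member probe under 6 scalings, filled where the adjusted p is under 0.05. Grey bars mark the median of all probes under that scaling, from -0.364 to 1.65, and Pcsk1 was not among the probes of the bright-probe ratios and of unscaled Cy5.

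Unscaled Cy5 signals place the members against the general brightness of the NOD arrays. Over the 1082 probes with Cy5 well above background on every array, log2 net Cy5 was higher in NOD by a median of 1.65 (quartiles 0.931 and 2.3), and 6.75% of these probes were lower in NOD. Pcsk2 differed by 0.26 ± 0.41 (SE, limma adjusted p = 0.574), its second probe by -0.04 ± 0.37 (adjusted p = 0.933) and Cpe by 0.28 ± 0.41 (adjusted p = 0.549). No strain difference in the members' own signal was thus detectable, and relative to the median of all these probes they stood at -1.39, -1.68 and -1.37. Of the 1082 probes, 10.2% had a lower difference than Pcsk2, 6.38% than its second probe and 10.5% than Cpe. The share of spots with Cy5 well above background was 10.4 to 16.8% in NOD and 3.9 to 7.68% in NOD.B10, without overlap. With it as a covariate the Pcsk2 difference was -2.02 ± 0.94 (SE, limma adjusted p = 0.68, unadjusted p = 0.0531). Because this share separates the strains completely, the fit cannot tell brightness from strain.

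**Figure D4:**
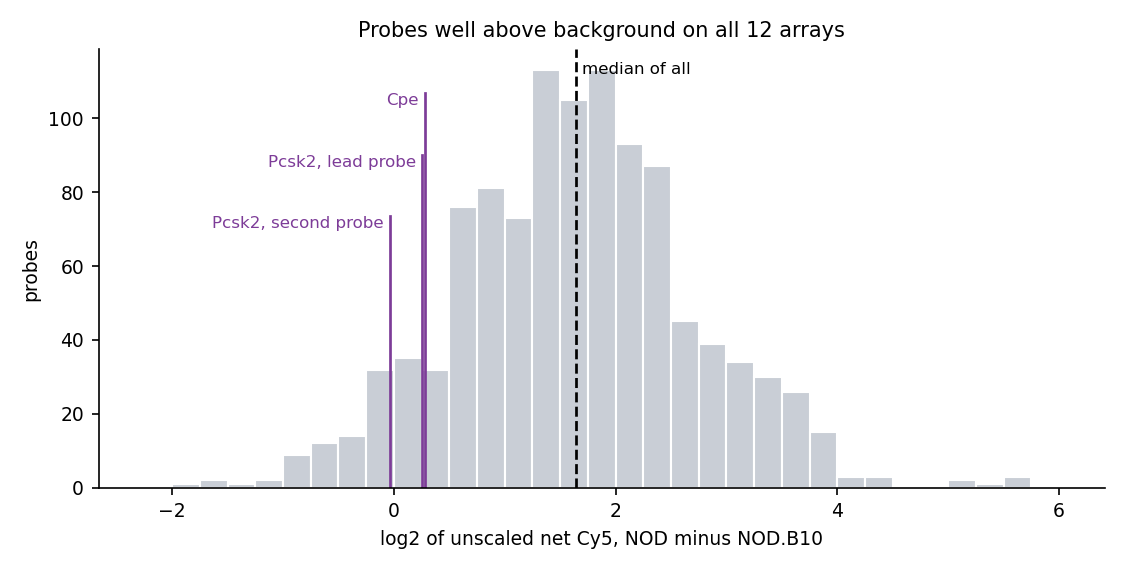
Histogram of the difference in log2 unscaled net Cy5, NOD minus NOD.B10, over 1082 probes well above background on all 12 arrays, in bins of log2 width 0.25. Vertical lines mark Cpe at 0.28 and the 2 Pcsk2 probes at 0.26 and -0.04, left of the dashed median of all probes at 1.65.

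Within the slides that held both strains, the Pcsk2 difference in the loess ratios was -1.83 on slide 2 and -1.89 on slide 3 (limma adjusted p = 0.223 and 0.275 with 2 mice per strain). With slide as a term in the fit the difference was -1.86 (adjusted p = 0.0103), and the share of all probes called lower in that fit was 8.02%. Cpe was at 0.38 on slide 2 and -0.26 on slide 3 (0.06 with slide in the fit, adjusted p = 0.907), and Pcsk1 at 0.12 and -0.24. The slides thus gave like values for Pcsk2 and values of both signs for Cpe and Pcsk1.

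Whether the members differed from each other in their strain difference was asked within each array, where a shift common to all probes cancels. What loess added was not common to them and does not cancel: over the 12 arrays it was 0.60 to 1.48 at the lead Pcsk1 probe, 2.21 to 4.00 at the lead Cpe probe and 4.61 to 8.02 at the lead Pcsk2 probe. Over 3 pairs of lead probes, the log2 ratio of Pcsk1 minus that of Pcsk2 was -6.10 ± 0.36 in NOD and -7.39 ± 0.71 in NOD.B10 (n = 6 each, SD), a difference of 1.29 (exact 2-sided permutation test over 924 assignments, adjusted p = 0.0195). Cpe minus Pcsk2 was -5.86 ± 0.67 in NOD and -7.00 ± 0.74 in NOD.B10, a difference of 1.14 (exact permutation, adjusted p = 0.039). Pcsk1 minus Cpe was -0.24 ± 0.50 in NOD and -0.38 ± 0.19 in NOD.B10, a difference of 0.15 (exact permutation, adjusted p = 0.55). The Pcsk1 values in these pairs are those of a probe near the limit of detection, not well above background on NOD replicates 1 and 4 and NOD.B10 replicate 6. Neither call held in other scalings: Pcsk1 minus Pcsk2 was 0.35 in the scanner's ratios, 0.84 in Cy5 alone and -0.51 under median centring. Cpe minus Pcsk2 was 0.05, 0.69 and -0.50 there and -0.46 in the bright-probe ratios, and none of these passed. Its call in the loess ratios was also lost without any of NOD replicates 3, 4, 5 and 6 and NOD.B10 replicates 1, 4 and 5 (exact permutation, adjusted p = 0.0682 to 0.0779).

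The members were also set against other genes of endocrine cells, whose mean was taken off on each array. Of 22 endocrine genes listed, Chga, Chgb, Scg3 and Abcc8 had Cy5 well above background throughout. Chga, which encodes the granule protein chromogranin A, was lower in NOD, with a log2 difference of -2.56 (limma adjusted p = 0.00119). Chgb (0.11), Scg3 (-0.14) and Abcc8 (0.05), which encode the granule proteins chromogranin B and secretogranin III and the sulfonylurea receptor of the beta cell potassium channel, did not pass. Relative to the mean of these 4, Pcsk2 was at 2.87 ± 0.21 in NOD and 3.65 ± 0.61 in NOD.B10 (difference -0.78, exact permutation, adjusted p = 0.0227), and Pcsk1 at -3.23 ± 0.34 in NOD and -3.74 ± 0.21 in NOD.B10 (difference 0.51, exact permutation, adjusted p = 0.0227). Cpe was at -2.99 ± 0.63 in NOD and -3.36 ± 0.15 in NOD.B10 (difference 0.36, exact permutation, adjusted p = 0.201). The signs of Pcsk1 and Cpe turned when Chga was left out of the mean, an alternative chosen after the data were seen. Pcsk1 was then at -0.13 and Cpe at -0.28 (exact permutation, adjusted p = 0.392 each), and Pcsk2 at -1.42 (exact permutation, adjusted p = 0.00649). With all 4 genes, Pcsk2 was at -0.06 in the scanner's ratios, -0.36 in Cy5 alone, 0.21 in the bright-probe ratios and 0.19 under median centring. Pcsk1 was at 0.29 in the scanner's ratios, 0.48 in Cy5 alone and -0.32 under median centring, where Cpe was at -0.31, and none of these values passed. The calls in the loess ratios were lost without NOD replicate 2, 3, 5 or 6 for Pcsk2 and without NOD replicate 2, 5 or 6 for Pcsk1.

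Beyond the 4 enzymes, 71 further genes of prohormone processing were listed, of which 63 had a probe and 25 were tested. Of these, 1 was higher in NOD, 8 were lower and 16 were not called, against 20.0% higher and 16.4% lower among all probes. All probes include many dim ones, whereas 20 of the 25 genes were well above background on all 12 arrays. In a fit of only the 1082 probes so read, 219 were called higher and 227 lower. The median difference of the 25 genes was -0.386, against 0.0164 for all probes tested. The direction depended on the scaling, with 13 higher and 0 lower under median centring (limma, 0 lower at an unadjusted p under 0.05 too), where 48.3% of all probes were called higher. With a mouse left out, 4 to 11 were lower. Of the 23 genes well above background on at least 1 array of each strain, 1 was higher and 7 were lower. The list holds the convertases' relatives and partners, other processing enzymes, the granule's pumps and transporters, and the precursors themselves.

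Among the partners of the convertases, Pcsk1n, which encodes the PC1/3 inhibitor proSAAS, was 2.39-fold lower in NOD at the lead of its 2 probes. Its log2 ratio was 3.60 ± 1.20 in NOD and 4.85 ± 0.32 in NOD.B10 (n = 6 each, SD; difference -1.26 ± 0.45, SE, limma adjusted p = 0.0432). It was at -1.70 in the scanner's ratios (adjusted p = 0.00181), -1.59 in Cy5 alone (adjusted p = 0.00615), -1.62 in the bright-probe ratios (adjusted p = 0.000655) and 0.39 under median centring (adjusted p = 0.265). Scg5, whose product 7B2 is the chaperone of PC2, was at 3.30 ± 0.79 in NOD and 3.69 ± 0.42 in NOD.B10 and did not pass (difference -0.39, limma adjusted p = 0.377). Scg5 was lower in the scanner's ratios (-1.43, adjusted p = 0.00672), in Cy5 alone (-1.24, adjusted p = 0.0018) and in the bright-probe ratios (-1.52, adjusted p = 0.00131). It was at 0.41 under median centring (adjusted p = 0.125) and 0.46 in unscaled Cy5 (adjusted p = 0.242). Pcsk1n was at 0.20 in unscaled Cy5 and did not pass there (limma adjusted p = 0.668). The ubiquitous convertase Furin was at -0.46 (adjusted p = 0.0761). Of 5 carboxypeptidases with a probe, Cpd included, 0 reached the filter, and the glutaminyl cyclase Qpct was well above background on 2 NOD arrays and 0 NOD.B10 arrays.

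Ctsb, the lysosomal protease cathepsin B, was the 1 gene of the list that rose, 2.15-fold. Its log2 ratio was 2.51 ± 0.33 in NOD and 1.40 ± 0.30 in NOD.B10 (n = 6 each, SD; difference 1.10, limma adjusted p = 0.000523). Ctsb did not pass in the scanner's ratios (0.45, adjusted p = 0.179). It was called higher in Cy5 alone (0.69, adjusted p = 0.00649), in the bright-probe ratios (1.15, adjusted p = 0.000631) and under median centring (2.705, adjusted p = 1.61e-05). Myeloid cells also express cathepsin B, and the leukocyte marker sums given above were higher in NOD too. The part of leukocytes in the Ctsb difference was not tested.

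Of 8 tested genes for granule acid and metal ions, 3 were called lower, against 16.4% of all probes, and 1 of the 3, Slc31a1, was not read in NOD.B10. Atp2a2, the calcium pump SERCA2 of the endoplasmic reticulum, was 2.3-fold lower in NOD (difference -1.20, limma adjusted p = 0.00449), and Atp6v1d, a subunit of the proton pump that acidifies granules, was 1.48-fold lower (-0.57, adjusted p = 0.0322). Atp2a2 and Atp6v1d, in that order, were also called lower in the scanner's ratios (-1.90 and -0.72), in Cy5 alone (-0.92 and -0.50) and in the bright-probe ratios (-1.91 and -0.77). Both turned sign under median centring, to 0.31 for Atp2a2 and 0.86 for Atp6v1d, the second with adjusted p = 0.0232. Slc31a1, a copper importer, was called lower (-0.50, adjusted p = 0.0133) although its Cy5 was well above background on 6 NOD and 0 NOD.B10 arrays, so no fold is given. Its net Cy5 was 9 to 24 in NOD and -2 to 10 in NOD.B10, and in Cy5 alone it differed by 0.07 (adjusted p = 0.554).

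Of 9 tested precursors, 4 were lower in NOD in the loess ratios, against 16.4% of all probes. Of the 9, 8 were well above background on all 12 arrays. In a fit of only the 1082 probes so read, 227 were called lower. The log2 difference was -3.35 for Ins2 (limma adjusted p = 0.000707), -2.56 for Chga, -1.75 for Ins1 (adjusted p = 0.0411) and -1.19 for Gcg (adjusted p = 0.0278). Iapp, the amylin precursor, was at -1.53 and did not pass (adjusted p = 0.0582). Net Cy5 of Ins2 was 3259 to 22450 in NOD and 9542 to 24830 in NOD.B10, while that of Gcg, the precursor PC2 cuts in alpha cells, was 22370 to 35960 in NOD and 9373 to 23670 in NOD.B10. Gcg was thus brighter in NOD before scaling and was higher in NOD in Cy5 alone (0.71, adjusted p = 0.0142) and under median centring (1.21, adjusted p = 0.000134), where 22.2% and 48.3% of all probes were called higher. It was lower in NOD in the scanner's ratios (-1.58, adjusted p = 0.00347) and in the bright-probe ratios (-0.81, adjusted p = 0.0213). Ins1, Ins2, Iapp and the lead Pcsk2 probe were lower in NOD in Cy5 alone, in the scanner's ratios and in the bright-probe ratios. None of them passed under median centring, where Ins1 was at 0.17, Ins2 at -0.05 and Iapp at -0.30.

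**Figure D5:**
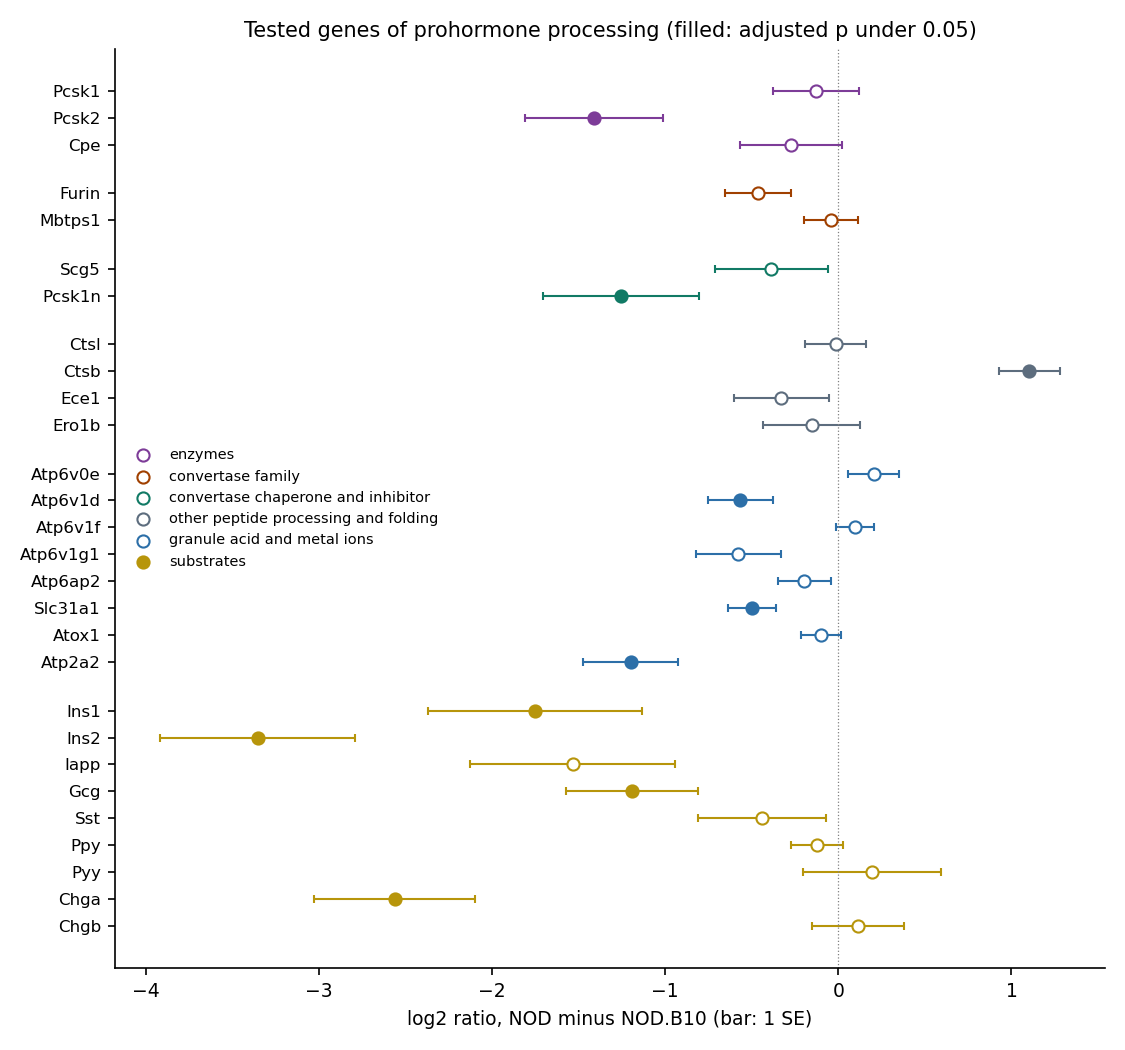
Difference in log2 ratio after normexp and loess, NOD minus NOD.B10, with 1 SE, for Pcsk1, Pcsk2, Cpe and the 25 tested genes of prohormone processing, coloured by role and filled where the adjusted p is under 0.05. Ctsb lies furthest right at 1.10 and Ins2 furthest left at -3.35, and Gcg, at -1.19 here, is positive in Cy5 alone and under median centring and negative in the scanner's ratios (-1.58) and the bright-probe ratios (-0.81).

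The genes whose loess ratios tracked each member most closely across mice were found after each strain's mean had been taken off, among 3912 genes over 12 arrays. Pearson's r was highest for Prss53 (0.933), Emb (0.919) and Cd164 (0.901) with Pcsk2, and these were still at 0.886, 0.862 and 0.838 without the 2 arrays farthest from the median of Pcsk2, NOD replicate 3 and NOD.B10 replicate 1. Pcsk1 was most like Mettl26 (0.961), Pdia6 (0.949) and Pofut2 (0.945), and Cpe most like Fam131a (0.969), Gadd45g (0.968) and Scd2 (0.955). Without the 2 farthest arrays these were between 0.77 and 0.883. Spearman's rho over all 12 arrays was 0.916 to 0.965 for the 3 genes of Pcsk2 and 0.692 to 0.853 for the other 6. The 9 genes were picked for these values, and all probes of an array share its brightness and loess curve, so the values are a description with no test.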

How the data were processed

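Per the file headers, each deposited array file comes from Feature Extraction 10.5.1.1 and holds unnormalised intensity values of both dyes, as the median pixel of a spot and of its surroundings. The same deposited files hold processed intensity values and log10 ratios of processed Cy5 to Cy3, background-subtracted and dye-normalised by the authors' software per the file headers. The deposited series table holds log2 values, of which 99.72% lay within 0.001 of the log2 processed ratio. The labels do not state this, and its array medians ran from -0.285 to -0.062. Other columns are the scanner's quality marks.

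Background was corrected by normexp with an offset of 50, loess followed within arrays, spots of a probe were averaged, and 5347 probes passed the filter of Cy5 well above background on 4 or more arrays (limma 3.58.1, R 4.3.3). Outlier spots, 250 to 379 per array with controls counted, were left out, and no spot was saturated. Accessions were matched to RefSeq symbols (assembly GRCm38.p6), which named 24375 of 41174 probes. The arrays' coordinates belong to another build and are not used here. Strains were compared with limma (lmFit, eBayes), Benjamini-Hochberg adjustment over all tested probes and a threshold of 0.05. A difference is always that of NOD less NOD.B10 on the log2 scale, and folds are its antilog. The step was tested on simulated data. Each array is 1 mouse per the labels, and precision is limited by how many arrays there are and by dim signals.

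Named were all probes of the 4 enzymes, every called processing gene with Scg5, Furin, Cpd, Qpct and the islet hormone precursors, the endocrine genes of the relative measure, and the 3 genes most like each member. Members and lists were chosen with earlier results of these data known. Alternatives covered scaling, filter, probe choice, slide, scan day, array weights, brightness, replicate number and each mouse left out. Unscaled Cy5, shares of array signal, changes relative to all probes, the endocrine mean without Chga and the count of processing genes read in both strains were added after the data were seen. Replicate numbers do not pair the mice: arrays of the same number correlated at -0.155 to 0.23 in their deviations.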

Additional observations from a re-analysis of the deposited data

Results flagged for a closer look

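Of 20 groups of 6 mice checked for a value far from the others (gap to the nearest value over the range of the group, at a 95% limit), 4 held one. Chance gives about 1 in 20 for independent groups. These groups are not independent, since all come from the same 12 arrays and Pcsk1 minus Cpe contains the Pcsk1 value. The Cpe log2 ratio of NOD replicate 3 was 2.2, against -0.03 to 0.78 in the other NOD mice. NOD.B10 replicate 6 gave the other three: a Pcsk1 log2 ratio of 0.101, against 0.58 to 0.83 in the rest of its strain, a ratio of the second Pcsk2 probe of 0.721, against 1.40 to 1.72, and a Pcsk1 minus Cpe value of -0.764, against -0.36 to -0.23. That array had Cy5 well above background on 3.90% of spots, the lowest share of all 12.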

How the results depend on the processing

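Pcsk2 kept its direction and its call without any single mouse (-1.67 to -1.24), with slide as a fixed or random term, without the slide scanned on another day, in the series table, with array weights, with outlier spots kept, with 1 probe per symbol and with a filter on all 12 arrays. Its call was lost with no filter (-1.41, limma adjusted p = 0.052), on slide 2 (-1.83) and slide 3 (-1.89), with brightness as a covariate (-2.02) and at the other probe (-0.19). It was 0.49 under median centring and 0.26 in unscaled net Cy5. Pcsk1 was never called, was 0.12 on slide 2 alone and -0.36 to -0.04 with a mouse left out. Cpe was called in the net ratio (-1.95), the scanner's ratios and series table (-1.59 each) and Cy5 alone (-0.52), was 0.058 with slide fixed, 0.38 on slide 2, 0.81 with brightness as a covariate and 0.28 in unscaled net Cy5, and ran from -0.56 to -0.12 with a mouse left out, called only without NOD replicate 3. The second Pcsk2 probe was 0.042 under median centring. Where a value changed, the cause was not tested.

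Probes called higher and lower, 1071 and 876, were 177 and 377 in the net ratio (of 1077 tested), 2581 and 1 under median centring, 1576 and 410 in the scanner's ratios, 1188 and 364 in Cy5 alone, 219 and 227 with the filter on all arrays (of 1082 tested), 508 and 429 with slide fixed, 43 and 56 on slide 2, 2 and 1 on slide 3, and 5 and 0 with brightness as a covariate (limma, 222 and 178 at an unadjusted p under 0.05). With no filter 1674 were lower. They ran from 873 to 1219 higher and 713 to 1020 lower with a mouse left out. Of the 25 processing genes, higher and lower calls were 1 and 8, against 13 and 0 under median centring (limma, 0 lower at an unadjusted p under 0.05 too), 13 lower in the scanner's ratios, 2 and 13 in Cy5 alone, 5 lower with slide fixed and 4 with no filter (63 tested), and 1 and 7 of the 23 read in both strains. With a mouse left out, 1 was higher and 4 to 11 lower, 11 without NOD replicate 3, 5 without NOD replicate 2, 4 or 5 or NOD.B10 replicate 4, and 4 without NOD.B10 replicate 5.

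Pcsk1 minus Pcsk2 was -0.51 under median centring, 0.35 in the scanner's ratios, 0.84 in Cy5 alone, 1.95 on slide 2 and 1.14 to 1.47 with a mouse left out, where it was always called. Cpe minus Pcsk2 was -0.50 under median centring, 0.051 in the scanner's ratios, -0.46 in the net ratio, 0.69 in Cy5 alone and 2.21 on slide 2. It was 0.99 to 1.35 with a mouse left out and lost its call without any of NOD replicates 3, 4, 5 and 6 and NOD.B10 replicates 1, 4 and 5. Pcsk1 minus Cpe was -0.0050 under median centring, -0.26 on slide 2 and -0.022 to 0.23 with a mouse left out. Relative to the endocrine genes, Pcsk1 was -0.32 under median centring, 0.29 in the scanner's ratios, 0.48 in Cy5 alone and 0.42 to 0.60 with a mouse left out. Pcsk2 was 0.19, -0.059 and -0.36 there, 0.21 in the net ratio and -0.94 to -0.65 with a mouse left out. Cpe was -0.31 under median centring, -0.0077 in the scanner's ratios, -0.25 in the net ratio, 0.97 on slide 2 and 0.19 to 0.54 with a mouse left out, called without NOD replicate 1. With Chga left out of the endocrine mean, Pcsk1 was -0.13, Cpe -0.28 and Pcsk2 -1.42. Calls of this measure were lost for Pcsk2 without NOD replicate 2, 3, 5 or 6 and for Pcsk1 without NOD replicate 2, 5 or 6. With replicate number as a block, Pcsk2 stayed at -1.41 (limma adjusted p = 0.0448), 7 processing genes were lower, and no member's call changed. Slides 2 and 3 hold 2 mice per strain, so pair and endocrine values there have no test.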
